A study of Mus musculus with 2 samples.

Results

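Cnp, Mobp, Mag, Mog, Mal, Cldn11, Ugt8a, Opalin, Gsn and Apod are genes of myelin and of the oligodendrocyte, the cell that makes myelin in the central nervous system. They were chosen by name, with no measured value in the rule, and are 10 of the 18311 known genes that had at least 1 read. The data are long-read RNA sequencing, in which a read covers most or all of a transcript, of the layer of hippocampus of male B6CASTF1/J mice, a cross of C57BL/6J with CAST/EiJ, at 14 days of age. There are 2 libraries, replicates 1 and 2 of a single group, and no treatment or genotype differs between them. Each was made from RNA pooled from 3 males, with 2 µg as starting material and with ERCC and SIRV spike-ins. The sample labels name different animals for each library, but the experiment description repeats the same animals for both. Whether the libraries come from separate animals cannot be told from the labels, and their spread may be only technical.

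Oligodendrocytes wrap axons in layers of their own membrane, and the layers are pressed together into compact myelin by proteins that sit between them. Some myelin proteins stay outside the compacted part, on the inner face against the axon, on the outer surface or in channels of cytoplasm. In the mouse hippocampus the early postnatal weeks are a time when myelin is still being laid down. Several of the genes give more than 1 protein through alternative first exons or alternative splicing, which long reads can show within single transcripts.

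Replicate 1 held 821324 mouse reads and replicate 2 held 743862. Levels are given as reads per 1000000 mouse reads (CPM), so that 1 read was worth 1.22 CPM in replicate 1 and 1.34 CPM in replicate 2. A count of 0 allows up to 3 reads, or 3.65 and 4.03 CPM. The common biological coefficient of variation over genes with at least 20 reads was 0.105, as estimated by edgeR from the 2 libraries. Markers of the oligodendrocyte lineage were present: the transcription factor gene Olig2 had 122 and 117 CPM, and its partner Sox10 had 60.9 and 51.1 CPM. Prx, a defining marker of Schwann cells, which make myelin in peripheral nerve, had 0 reads in both libraries.

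The 10 genes spanned a wide range of levels, and their order was nearly the same in both libraries. Cnp stood first, at 1002 CPM in replicate 1 and 621 CPM in replicate 2, a mean of 812 ± 269 CPM (SD, n = 2). Its mean level was above that of 99.4% of the genes with reads. Gsn followed at 416 and 160 CPM, and Mobp at 197 and 73.9 CPM. Within each library the counting intervals of these 3 genes did not overlap. Mag had 107 and 36 reads, or 130 and 48.4 CPM, and Ugt8a had 78 and 40 reads, so that Mag ranked above Ugt8a in replicate 1 and below it in replicate 2. The intervals of Mag and Ugt8a overlapped in both libraries, and their order is not resolved. Mal came next, at 60.9 and 22.9 CPM. Opalin and Apod each had 16 reads in replicate 1 and 6 in replicate 2, or 19.5 and 8.07 CPM. Cldn11 had 8 and 5 reads, and Mog had 4 and 2. The counting intervals of these last 4 genes overlapped in each library. A long read is counted once whatever the length of its transcript, so CPM was not divided by length. Per kilobase of mean model length the order of the upper 3 was the same, Mag ranked above Ugt8a in both libraries, and Cldn11 ranked above Opalin in replicate 2.

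**Figure D1:**
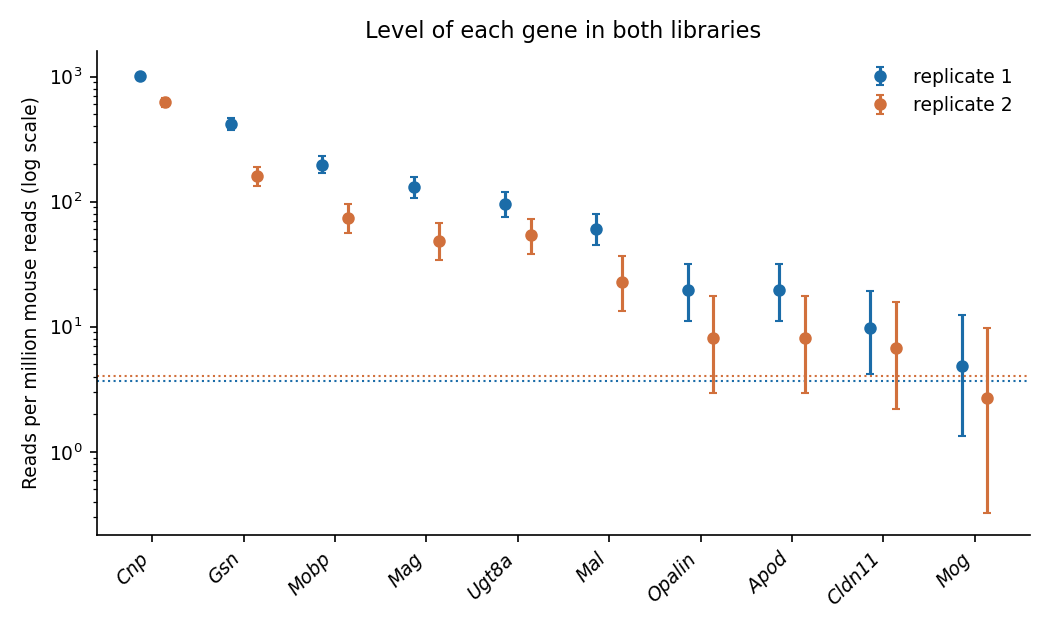
Level of the 10 genes in CPM on a log axis, with replicate 1 in blue and replicate 2 in orange. Bars are exact Poisson intervals at 95% confidence, dotted lines mark what a count of 0 allows (3.65 and 4.03 CPM), and the levels run from 1002 CPM for Cnp in replicate 1 to 2.69 CPM for Mog in replicate 2.

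Every one of the 10 genes had a lower CPM in replicate 2 than in replicate 1. Summed over the 10, there were 1606 reads in replicate 1 and 748 in replicate 2, or 1955 and 1006 CPM. The median log2 ratio of replicate 2 over replicate 1 was -1.20 over the 10 genes and -1.29 over the 8 that had at least 20 reads and were tested. Over all 8875 genes tested it was 0.01, and 48.5% of those genes were lower in replicate 2. Cnp, Gsn, Mobp, Mag and Mal, 5 of the 8, were called lower by Fisher's exact test with Benjamini-Hochberg adjustment over all genes, and 0 were called higher. Of all genes tested, 1.58% were called in either direction and 0.834% were called lower. At least a 2-fold lower level was found for 6 of the 8, against 2.08% of all genes tested. With 1 group, the test asks whether 2 libraries differ beyond counting error and says nothing about a condition. In bulk RNA, fewer oligodendrocytes and less of each RNA per oligodendrocyte cannot be told apart.

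**Figure D2:**
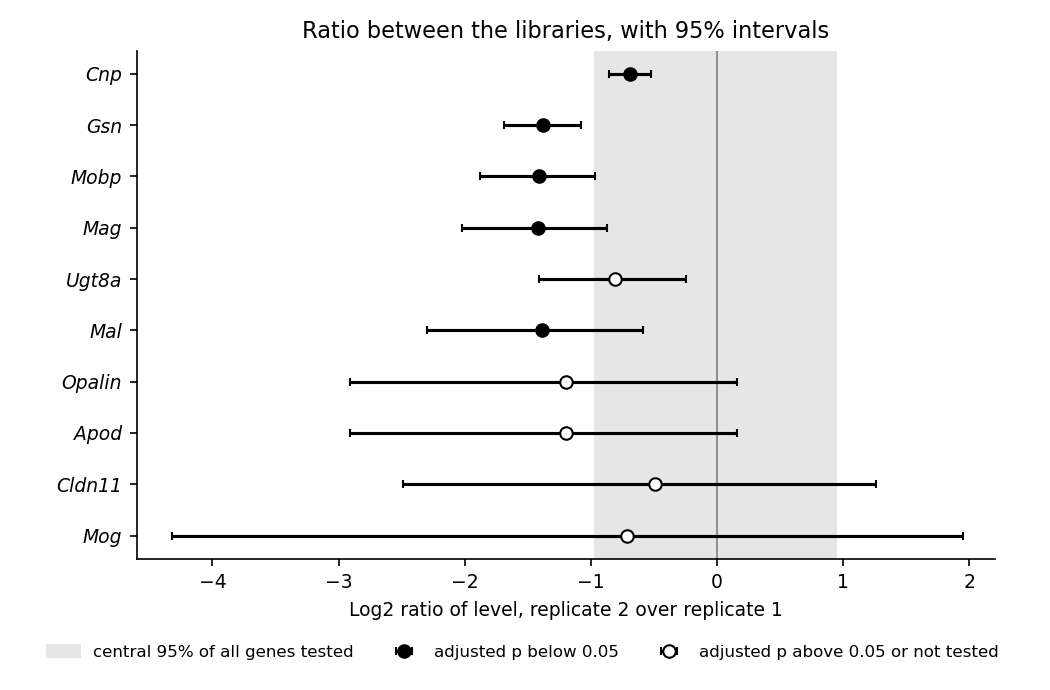
Log2 ratio of level, replicate 2 over replicate 1, for the 10 genes, with intervals at 95% confidence that cover counting error. Filled points had an adjusted p below 0.05, the grey band holds the central 95% of all genes tested (-0.97 to 0.94), and all 10 points lie below 0.

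Cnp (ENSMUSG00000006782.16; mm10 chromosome 11, 100574904 to 100591729, plus strand) encodes an enzyme, 2′,3′-cyclic-nucleotide 3′-phosphodiesterase, of the cytoplasmic channels of non-compact myelin. It had 823 reads in replicate 1 and 462 in replicate 2. Its log2 ratio was -0.69 (95% interval -0.86 to -0.52), a 1.61-fold lower level, with an adjusted p of 4.50e-14 by Fisher's exact test. The interval of Cnp did not overlap that of Gsn, Mobp or Mag, all of which had lower ratios, and the differences between the ratios were not tested. A further 41 and 30 reads lay over its exons on the opposite strand and were not counted.

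Mobp (ENSMUSG00000032517.16; chromosome 9, 120149707 to 120181484, plus strand), a basic protein of the compact layers, had 162 and 55 reads. Its log2 ratio was -1.41 (-1.88 to -0.97), with an adjusted p of 1.57e-08 by Fisher's exact test. Mal (ENSMUSG00000027375.14; chromosome 2, 127633226 to 127656695, minus strand), a small lipid-binding membrane protein, had 50 and 17 reads. Its log2 ratio was -1.39 (-2.30 to -0.59), with an adjusted p of 0.0279. That call is near the threshold, and the adjusted p by Fisher's exact test was 0.0505 with genomic-class reads left out, 0.0559 with no minimum count and 0.0744 with annotated transcripts alone. All 64 spliced reads of Mal, 47 and 17, came from Mal-202, a transcript of 4 exons that codes for 153 residues.

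Opalin (ENSMUSG00000050121.9; chromosome 19, 41061710 to 41077113, minus strand) encodes a transmembrane protein of oligodendrocytes. Its log2 ratio of -1.20 had an interval from -2.91 to 0.16 and did not pass the test (adjusted p = 0.601, Fisher's exact test). The transcript Opalin-201, which codes for 143 residues, held 15 of its reads in replicate 1 and 5 in replicate 2. Cldn11 (ENSMUSG00000037625.7; chromosome 3, 31149920 to 31164324, plus strand), the tight junction protein that seals the layers along the sheath, had too few reads for the test. Its ratio of -0.49 ran from -2.49 to 1.26, and 6 and 3 of its reads were of the only catalogued transcript.

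Mag (ENSMUSG00000036634.15; chromosome 7, 30899176 to 30914873, minus strand) encodes an adhesion protein of the innermost membrane, which faces the axon. It had 107 and 36 reads and a log2 ratio of -1.42 (-2.02 to -0.87), with an adjusted p of 1.44e-05 by Fisher's exact test. Mog (ENSMUSG00000076439.12; chromosome 17, 37010743 to 37023398, minus strand) encodes a protein of the outermost surface that appears late in myelination. None of its 4 and 2 reads matched either of the 2 catalogued transcripts. Of them, 3 and 1 were unspliced reads of the genomic class, and the other read of each library shared the same chain of introns, which is not in the catalogue. At this depth a difference in Mog was not detectable, with a ratio of -0.71 and an interval from -4.32 to 1.95. With the genomic-class reads left out the ratio turned to 0.16, on 1 read in each library.

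Ugt8a (ENSMUSG00000032854.12; chromosome 3, 125865271 to 125938619, minus strand) encodes the enzyme that makes galactosylceramide, the main glycolipid of myelin. It had 78 and 40 reads, and its log2 ratio of -0.81 (-1.41 to -0.25) did not pass the test after adjustment (adjusted p = 0.138, Fisher's exact test). Ugt8a-201 held 67 of 74 complete spliced reads in replicate 1 and 30 of 36 in replicate 2, and Ugt8a-203 held 3 and 2. Both code for 541 residues and differ in their first exon.

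Gsn (ENSMUSG00000026879.14; chromosome 2, 35256380 to 35307892, plus strand) encodes gelsolin, which severs actin filaments, and Apod (ENSMUSG00000022548.14; chromosome 16, 31296192 to 31314808, minus strand) encodes a secreted lipid carrier. Gsn had 342 and 119 reads, with a log2 ratio of -1.38 (-1.69 to -1.08) and an adjusted p of 1.72e-18 by Fisher's exact test. Apod had the same counts as Opalin and did not pass the test. Both genes are also known in fibroblasts and cells of vessel walls. The 7 fibroblast and meningeal markers, all with reads, summed to 213 and 250 CPM, and the 4 mural markers to 233 and 216 CPM. Of these, 4 fibroblast and meningeal markers and 3 mural markers were tested, and none was called, against 1.58% of all genes tested. The part of these cells in the ratios of Gsn and Apod was not tested. Of the markers of other cell types, Ttr, the transthyretin gene that marks choroid plexus, moved with the 10 genes: its reads numbered 159 and 65, with a log2 ratio of -1.14 and, in Fisher's exact test, an adjusted p of 6.30e-06. The 5 choroid plexus markers summed to 206 and 90.1 CPM, or 169 and 67 reads, nearly all from Ttr. Kl, Folr1, Clic6 and Otx2 had at most 6 reads in a library and were not tested. The part of choroid plexus in the result was not tested.

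Most reads of the 10 genes matched annotated transcripts. The share was 85.2% in replicate 1 and 85.7% in replicate 2, against 72.1% and 70.5% over all known genes, and this difference was not tested. The summed share weighs Cnp most, which held 823 of the 1606 reads in replicate 1 and 462 of the 748 in replicate 2. For Cnp it was 94.8% and 93.3%, for Gsn 88.0% and 85.7%, and for Mobp 79.6% and 81.8%. Mag had 11 of 107 reads on annotated transcripts in replicate 1 (10.3%, Wilson 95% interval 5.84% to 17.5%) and 2 of 36 in replicate 2 (5.56%, 1.54% to 18.1%). Most reads of Mag, 68 and 19, were of new combinations of annotated splice sites. Over the 10 genes, 72 complete structures outside the catalogue were seen, of which 15 were found in both libraries and held 137 reads. Mag alone had 16 of these structures, and the 4 found in both libraries held 87 of its 99 reads outside the catalogue.

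The Cnp gene is known in mouse to be read from a pair of promoters and to give a longer and a shorter protein that differ at the amino end. The stretch from the first start codon of Cnp-201 to the next start codon in the same frame is shown because it is the part that separates the 2 proteins. It runs from the end of the first exon into the next one, at chr11:100575066-100576295 (mm10, plus strand, the intron left out), and capitals mark both start codons. Transcript sequences here and further on are those of GENCODE M21.
Cnp-201 coding start: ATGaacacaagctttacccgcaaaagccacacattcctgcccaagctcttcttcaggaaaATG
Cnp-201 has 4 exons and codes for 420 residues. It held 445 of 797 complete spliced reads in replicate 1 (55.8%, Wilson 95% interval 52.4% to 59.2%) and 271 of 444 in replicate 2 (61.0%, 56.4% to 65.5%). Cnp-204 begins downstream of the first exon, has 3 exons and is catalogued as a transcript without a coding sequence, but it holds the second start codon, codon 21 of the longer form, and from there reads 400 codons in frame to the same stop. It held 335 reads (42.0%, 38.7% to 45.5%) and 160 reads (36.0%, 31.7% to 40.6%). Both transcripts were abundant in both libraries. The introns of Cnp-204 are also the last introns of Cnp-201, but its first exon holds sequence that Cnp-201 splices out, and reads shortened at their 5′ end within the shared exon cannot be told apart from it by their introns. A structure outside the catalogue with an intron inside the first exon of Cnp-204 had 2 and 4 reads.

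Mobp forms differ at the carboxyl end, where the exon that holds the start codon is joined to 1 of 2 next exons. The joins are shown because each sets a different protein end. Lines give the last 15 bases of the shared coding exon, at chr9:120167996-120168010 (mm10, plus strand), followed by the next exon, and capitals mark the stop codon where it falls in the stretch.
Mobp-202 and Mobp-204 join: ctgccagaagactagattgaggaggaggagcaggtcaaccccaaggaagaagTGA
Mobp-201 join: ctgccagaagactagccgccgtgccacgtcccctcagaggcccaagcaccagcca
The distal exon, which starts at 120173151 and brings the stop codon shown, was used by 116 of 141 reads in replicate 1 (82.3%, Wilson 95% interval 75.1% to 87.7%) and 43 of 50 in replicate 2 (86.0%, 73.8% to 93.0%). The nearer exon, from 120168223, was used by 25 reads (17.7%) and 7 reads (14.0%). The form with the early stop codes for 81 residues and that with the nearer exon for 170. Mobp-204, an 81-residue form of 6 exons, held 106 of 143 complete spliced reads (74.1%) and 37 of 49 (75.5%), although the catalogue classes it as a target of nonsense-mediated decay, the pathway that removes RNAs with a stop codon upstream of a splice junction. Mobp-201, for 170 residues, held 15 and 5 reads. The intervals of the libraries overlapped for the distal join.

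Mag is known to make a long and a short protein that differ at the end inside the cell, and an alternative exon near the 3′ end decides between them. That exon is shown because it carries the stop codon of the short form, marked in capitals (chr7:30900352-30900396, mm10, minus strand).
Mag exon of the short form: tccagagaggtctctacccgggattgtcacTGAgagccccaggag
It has 45 bases, of which 30 come before the stop codon. It was included in 12 of 102 reads in replicate 1 (11.8%, Wilson 95% interval 6.86% to 19.4%) and in 6 of 34 in replicate 2 (17.6%, 8.35% to 33.5%). The long form, which skips it, held most reads in both libraries, and the intervals overlapped. The catalogued long form, Mag-207, codes for 627 residues and the short form, Mag-203, for 582.

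A further alternative exon of Mag lies before the start codon, at 30914269 to 30914321, and has 53 bases. The joins to the shared exon that ends at 30912879 are shown because they separate the structure with most reads from the catalogued long form. Capitals mark the last 15 bases of the exon before the join, from the first exon in the upper line (Mag-205) and from the 53-base exon in the lower one (Mag-207).
First exon join: AGTCAGATCGTCCAAgttgaaaggccactt
53-base exon join: CCCTGAAGAGACTTGgttgaaaggccactt
Between a first exon and the shared exon, the 53-base exon was included in 18 of 74 reads (24.3%, 16.0% to 35.2%) and 6 of 24 (25.0%). The structure with most reads had 11 exons, skipped both alternative exons and was not in the catalogue. It held 44 of 84 complete spliced reads in replicate 1 (52.4%, 41.8% to 62.7%) and 14 of 28 in replicate 2 (interval 32.6% to 67.4%). A structure of 12 exons that included the 53-base exon had 12 and 2 reads, and another that included the 45-base exon had 8 and 2. These 3 structures join splice sites that the catalogue holds only in separate transcripts. A structure with a splice site outside the catalogue, at the end of a longer first exon, and with the 53-base exon had 2 and 3 reads. Mag-207 itself, which begins within the 53-base exon, had 7 and 2 reads. Reads of the structure of 12 exons with that exon, if shortened at their 5′ end, cannot be told apart from it by their introns.

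Gsn is known to give a cytoplasmic and a secreted protein from alternative first exons. The first bases of both coding sequences are shown because they set that difference: the codons at the start of the secreted form (Gsn-201, chr2:35282464-35282523) lie in a first exon that the cytoplasmic form (Gsn-205, chr2:35283914-35283973) does not have. Capitals mark the start codons (mm10, plus strand).
Gsn-201 coding start: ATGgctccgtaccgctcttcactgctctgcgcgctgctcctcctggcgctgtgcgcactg
Gsn-205 coding start: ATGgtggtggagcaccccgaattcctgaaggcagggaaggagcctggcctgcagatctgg
Gsn-201, of 17 exons, codes for 780 residues and Gsn-205, of 18 exons, for 731. Gsn-201 held 280 of 330 complete spliced reads in replicate 1 (84.8%, Wilson 95% interval 80.6% to 88.3%) and 80 of 114 in replicate 2 (70.2%, 61.2% to 77.8%). Gsn-205 had 21 reads (6.36%) and 22 reads (19.3%). It fell just under the 10% share used to pick transcripts and was added after its values were seen. A structure of 19 exons outside the catalogue, with the same first exon as Gsn-205 and a further 71-base exon at 35282651 to 35282721, had 14 and 6 reads.

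**Figure D3:**
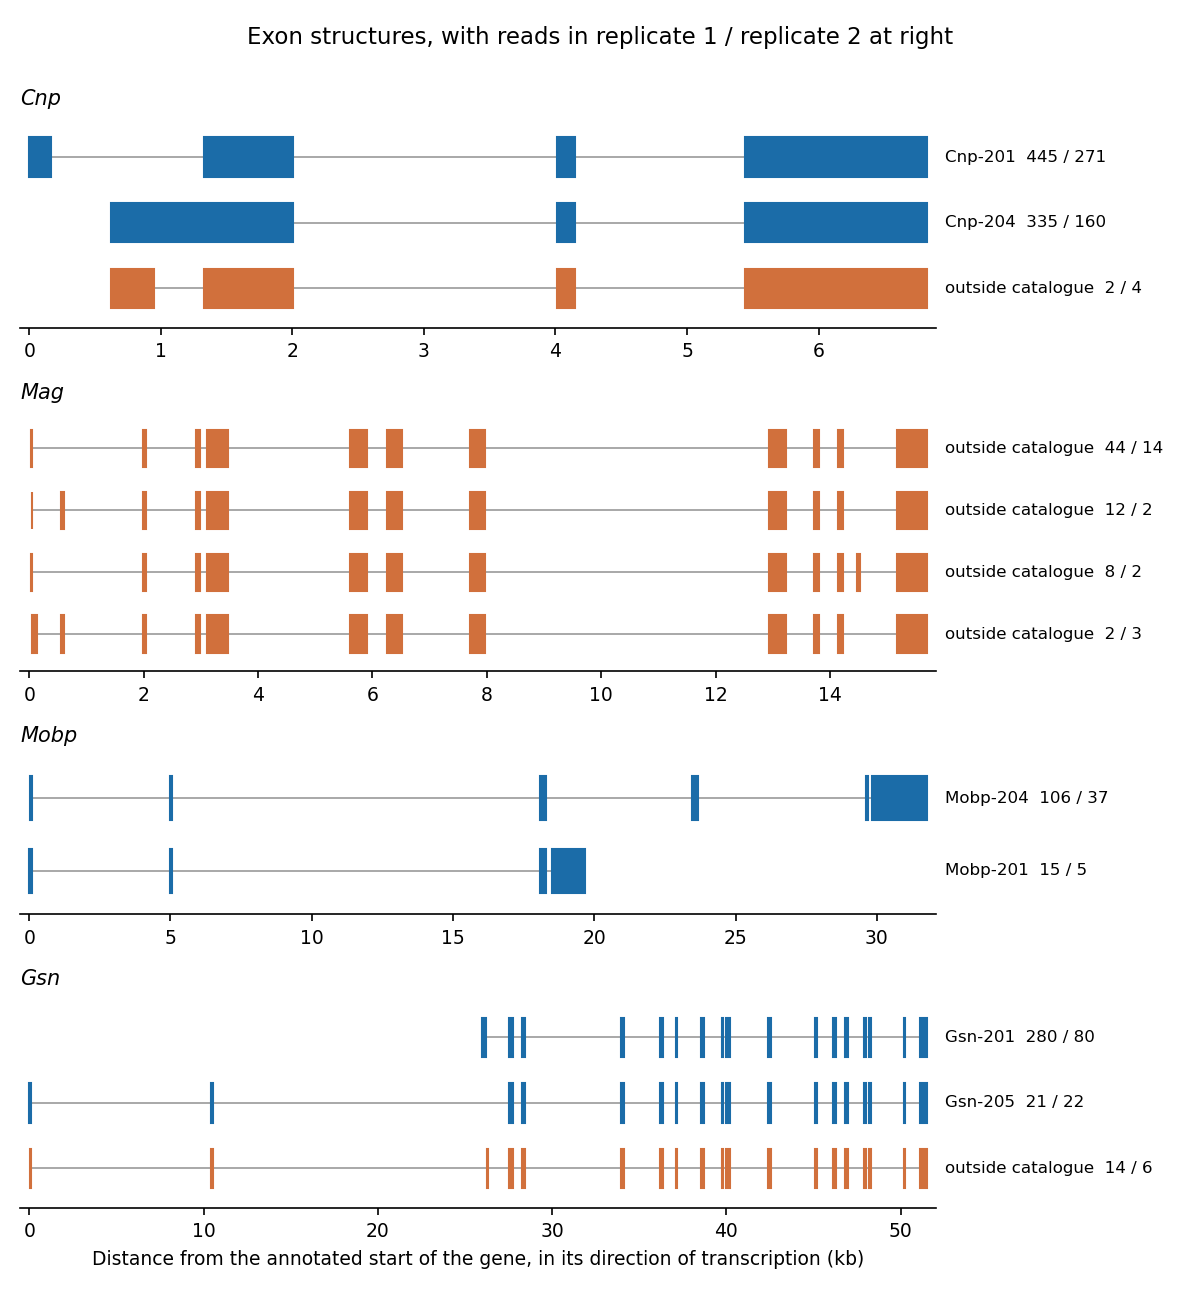
Exons (boxes) and introns (lines) of transcripts of Cnp, Mag, Mobp and Gsn, to scale along the gene in kilobases from its annotated start, with annotated transcripts in blue and structures outside the catalogue in orange. Reads in replicate 1 and replicate 2 stand at the right, and all 4 structures drawn for Mag are outside the catalogue.

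First-exon use was compared between the libraries for genes with at least 20 complete spliced reads in each and more than 1 first exon in use, a comparison added after the data had been seen. For Gsn the downstream first exon of the secreted form had 286 of 330 reads in replicate 1 (86.7%) and 83 of 114 in replicate 2 (72.8%). Its level went from 348 to 112 CPM, a log2 ratio of -1.64 (-2.01 to -1.28). The upstream first exon had 44 and 31 reads, or 53.6 and 41.7 CPM, a log2 ratio of -0.36 (-1.07 to 0.33). Most of the reads by which the Gsn total was lower in replicate 2 were thus from the downstream exon. For Cnp the upstream first exon had 451 of 797 reads (56.6%) and 277 of 444 (62.4%), and the ratios were -0.56 upstream (-0.78 to -0.34) and -0.91 downstream (-1.18 to -0.64). The downstream count of Cnp may include reads of Cnp-201 shortened at their 5′ end. By Fisher's exact test, 0 of the 2 genes were called after adjustment over 881 genes, against 0.454% of all genes tested. Both had an unadjusted p below 0.05, 0.00126 for Gsn and 0.0475 for Cnp, and the adjusted p were 0.186 and 0.973. With annotated transcripts alone, where 452 genes were tested, the difference for Gsn was -14.6 percentage points with an adjusted p of 0.036.

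**Figure D4:**
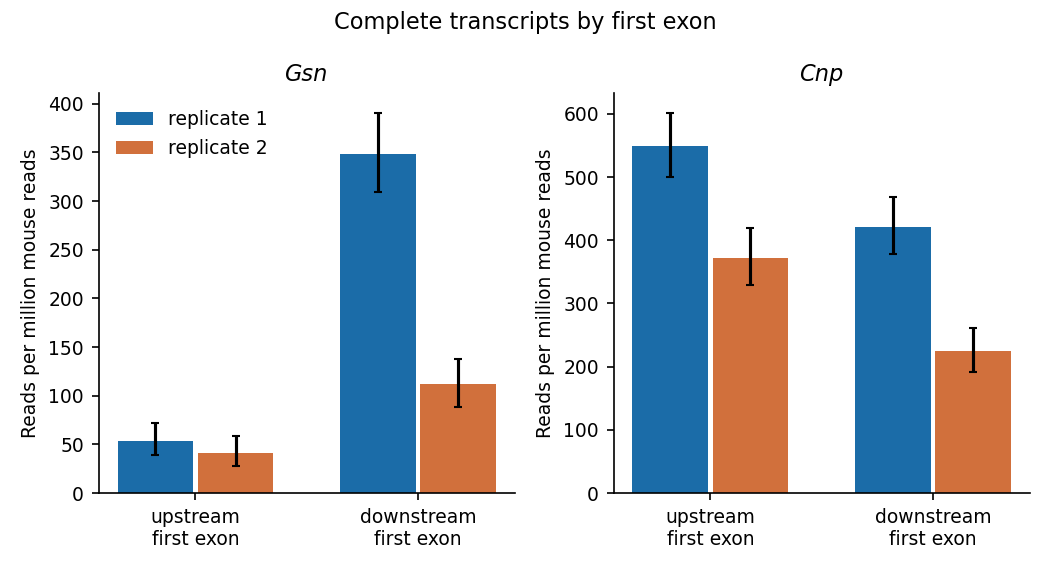
CPM of complete spliced transcripts assigned to the upstream or the downstream first exon of Gsn and Cnp, for replicate 1 in blue and replicate 2 in orange, with exact Poisson intervals at 95% confidence. The downstream bars of Cnp may include reads of Cnp-201 shortened at their 5′ end. For Gsn the downstream exon went from 348 to 112 CPM while the intervals of the upstream exon overlap, at 53.6 and 41.7 CPM.

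None of the 3 variable internal exons, those of 45 and 53 bases in Mag and of 71 bases in Gsn, passed the test for a difference in inclusion between the libraries. The 71-base exon was in 19 of 333 reads in replicate 1 (5.71%) and 7 of 114 in replicate 2 (6.14%). Among complete reads from the upstream first exon of Gsn, 18 of replicate 1 and 7 of replicate 2 held it, and 26 and 24 did not. By Fisher's exact test the unadjusted p were 0.39, 1.0 and 0.82, and 0 of the 3 were below 0.05. After adjustment 0 of the 3 were called, against 0.0440% of all 2272 exons tested.

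Promoter windows, 250 bases before to 50 bases after each RefSeq start (GRCm38.p6), were found for all 10 genes, 14 windows in all. Of the 5 genes called lower, windows of Cnp, Mag and Mobp are printed because they held a match to a motif searched. Those at the Gsn first exons that were compared are printed too. A further Gsn window, chr2:35266494-35266793, held an E-box at -216 to -211 and is not printed. The window of Mal held no match and is not printed. Capitals mark matches, on either strand, to CTGGCAC, the core of the motif of MYRF, the transcription factor that drives myelin genes, to AACAAAG, the core of the motif bound by SOX factors, and to the E-box CAGCTG, which basic helix-loop-helix factors bind. No match overlaps another.
Cnp, chr11:100574689-100574988, plus strand: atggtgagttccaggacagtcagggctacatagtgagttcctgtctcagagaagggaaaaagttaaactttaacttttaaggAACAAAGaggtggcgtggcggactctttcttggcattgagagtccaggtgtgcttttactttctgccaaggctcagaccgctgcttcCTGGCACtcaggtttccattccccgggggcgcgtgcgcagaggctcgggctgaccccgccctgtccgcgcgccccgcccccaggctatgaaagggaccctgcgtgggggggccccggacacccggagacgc
Mag, chr7:30914814-30915113, minus strand: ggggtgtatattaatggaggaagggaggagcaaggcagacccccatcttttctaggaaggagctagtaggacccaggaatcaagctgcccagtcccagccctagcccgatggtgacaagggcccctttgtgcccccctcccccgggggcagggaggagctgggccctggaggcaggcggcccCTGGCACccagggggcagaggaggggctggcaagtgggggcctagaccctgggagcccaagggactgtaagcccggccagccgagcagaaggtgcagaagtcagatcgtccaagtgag
Mobp, chr9:120149492-120149791, plus strand: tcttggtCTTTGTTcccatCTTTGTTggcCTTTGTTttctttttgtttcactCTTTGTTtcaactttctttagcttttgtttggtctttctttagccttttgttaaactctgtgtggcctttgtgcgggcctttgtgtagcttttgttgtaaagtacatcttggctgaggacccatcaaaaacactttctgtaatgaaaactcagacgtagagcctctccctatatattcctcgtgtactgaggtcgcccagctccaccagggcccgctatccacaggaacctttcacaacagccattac
Gsn upstream, chr2:35256109-35256408, plus strand: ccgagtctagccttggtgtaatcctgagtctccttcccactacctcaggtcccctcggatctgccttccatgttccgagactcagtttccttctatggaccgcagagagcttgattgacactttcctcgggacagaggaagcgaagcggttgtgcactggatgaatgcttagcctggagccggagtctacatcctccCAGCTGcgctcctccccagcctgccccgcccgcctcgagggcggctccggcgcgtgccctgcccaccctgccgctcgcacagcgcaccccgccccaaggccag
Gsn downstream, chr2:35282130-35282429, plus strand: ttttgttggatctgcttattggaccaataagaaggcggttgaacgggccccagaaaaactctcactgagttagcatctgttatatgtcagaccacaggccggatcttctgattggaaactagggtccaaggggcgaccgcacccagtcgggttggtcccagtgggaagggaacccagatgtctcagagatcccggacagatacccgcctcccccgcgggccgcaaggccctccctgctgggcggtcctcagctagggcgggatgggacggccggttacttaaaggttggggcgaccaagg
The MYRF core was found in 4 of the 14 windows, of Cnp, Opalin and 2 overlapping windows of Mag. Both Mag windows hold the same match, which is thus counted in each. Of all 32851 RefSeq windows 5.01% held the core, and the difference was not tested. In Cnp it lay at positions -81 to -75 from the start and in the printed window of Mag at -68 to -62. The SOX core was found in 2 windows, with 4 matches in Mobp between -243 and -192 and 1 in Cnp at -168 to -162, and in 5.85% of all windows. The E-box was found in 4 of the 14 windows and in 16.3% of all windows. The upstream window of Gsn held 1 E-box, at -53 to -48, and 20 CG pairs, and the downstream window held none of the 3 motifs and 16 CG pairs, where the median over all windows was 7. The sequence TATAAA was in 0 of the 14 windows and in 13.6% of all.

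Other oligodendrocyte genes were described by role, from lists chosen with earlier results of these data known. Counts called in these lists stand beside 1.58% of all genes tested called in either direction and 0.834% called lower. Among 17 further genes of the myelin protein list, 12 were tested, 2 were called lower and 1 higher, and the median log2 ratio was -0.41. Mbp, the basic protein that binds the inner faces of the membrane together, had 3746 and 1687 CPM (log2 ratio -1.15, adjusted p = 2.87e-133 by Fisher's exact test). Mal2, listed as a relative of Mal, rose with a log2 ratio of 0.46 (adjusted p = 0.0318, Fisher's exact test). Whether its reads came from oligodendrocytes was not tested. Gpm6b, a membrane glycoprotein gene that neurons and astrocytes also express, had 1866 and 1814 CPM. Of 14 further enzymes of myelin lipids, 12 were tested and 0 were called, with a median of -0.34. The cholesterol synthesis genes Hmgcs1 (710 and 808 CPM) and Sqle (164 and 161 CPM), which other cells also use, were among the most abundant of them. Fa2h, which hydroxylates the fatty acids of myelin glycolipids, had 20 and 8 reads.

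Of 15 transcription factors of the lineage, 14 had reads, 8 were tested and 0 were called, with a median log2 ratio of -0.18. Of all genes tested 1.58% were called, so 0 calls in a list of this size is near that share. It does not show that their levels were unchanged, and 10 of the 15 had a lower CPM in replicate 2. Olig1 had 253 and 192 CPM, Olig2 122 and 117, and Sox8 113 and 76.6 CPM. Myrf, which drives the switch to myelination, had 15 and 3 reads, under the minimum for a test. Of 16 genes of precursors and newly committed cells, 10 were tested and 0 were called, which is also near the share over all genes, with a median of -0.25. The kinase gene Fyn had 407 and 389 CPM, Bcas1, a marker of cells that begin to myelinate, 87.7 and 48.4 CPM, and Rras2 62.1 and 68.6 CPM. By unadjusted p, Bcas1 was at 0.00366 and Olig1 at 0.0119 in Fisher's exact test.

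Among 31 other genes of mature oligodendrocytes, 30 had reads and 21 were tested, of which 4 were called lower and 0 higher, with a median of -0.12. Enpp2, which makes the signalling lipid lysophosphatidic acid, went from 183 to 63 reads, with a log2 ratio of -1.39 and an adjusted p of 1.32e-09 in Fisher's exact test. Enpp2 is also a marker of choroid plexus, which Ttr marks as well. Sept4, a septin of the cytoskeleton, had 125 and 47 reads (-1.26, adjusted p = 2.35e-05), Sirt2, a deacetylase abundant in myelin, had 441 and 259 (-0.62, adjusted p = 7.06e-06), and the iron carrier gene Trf had 112 and 59 (-0.78, adjusted p = 0.0461). Scd2, a fatty acid desaturase, had 577 and 596 CPM, and Stmn4, a regulator of microtubules, had 158 and 230 CPM. The 5 astrocyte markers summed to 2412 and 2558 CPM and the 5 neuronal markers to 1873 and 1795 CPM. The 5 microglial markers summed to 265 and 298 CPM and the 4 endothelial markers to 410 and 367 CPM. Of these, 3 endothelial markers and all markers of the other lists were tested, and none was called, against 1.58% of all genes tested. The 3 ependymal markers summed to 4.87 and 6.72 CPM, and all were under the minimum for a test. The 4 Schwann cell markers summed to 60.9 and 57.8 CPM, mostly from Pmp22, with 45 and 42 reads. Pmp22 was the only Schwann cell marker tested and was not called. Of 6 markers of hippocampal neuron types, which summed to 1060 and 1183 CPM with a median log2 ratio of 0.36, 1 was called: Ccn3 rose from 323 to 454 CPM, with a log2 ratio of 0.49 and an adjusted p of 0.00439 in Fisher's exact test. The part of this difference in the ratios of the 10 genes was not tested.

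**Figure D5:**
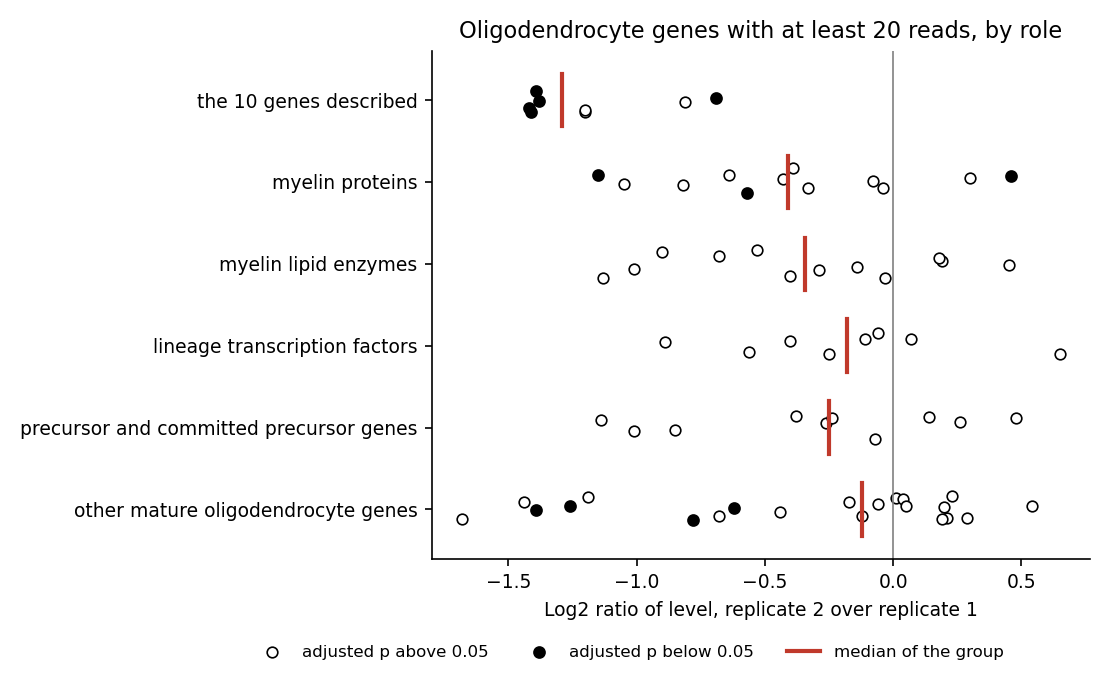
Log2 ratio of level, replicate 2 over replicate 1, for oligodendrocyte genes that were tested, by role, with the 8 tested of the 10 genes shown apart from the lists. Filled points had an adjusted p below 0.05 and red lines are medians, which run from -1.29 for those 8 genes to -0.12 for the other mature genes.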

How the data were processed

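Per the file headers, the tables deposited hold raw read counts of each transcript model, not normalized, and the deposited annotation files give exon positions on mm10 against GENCODE M21. Columns for the number of exons and the length of each model were also used. The aligner and the caller were not given in the sources used here. TALON writes attributes of the kind found in the annotation. Annotated models carry the ends of the catalogue, so measured read ends are not known for them. SIRV spike-ins were not used here.

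All models assigned to a gene on its strand were added up. The gene's reads and the remaining mouse reads of both libraries formed a table for a two-sided Fisher's exact test, run on genes with at least 20 reads, with Benjamini-Hochberg adjustment over all genes and a threshold of 0.05. With 1 sample group no count model gives a contrast. Log2 ratios add 0.5 reads to each count, and their intervals are exact binomial, at 95% confidence. Shares have Wilson intervals. Amplified reads are not independent molecules, so intervals and floors cover counting error only. Complete spliced reads are those of annotated transcripts, new combinations of known splice sites and new splice sites. Exon inclusion also counted incomplete matches, and exons with at least 20 reads in each library and 5% to 95% inclusion were tested. Transcripts were picked with at least 5 reads and 10% of their gene's complete reads. Structures outside the catalogue needed 5 reads and both libraries. Gsn-205, Ugt8a-203, Mag-203, Mag-205, Mag-207, Mobp-202 and the structure of Mog did not meet these rules and were named as well. Of other oligodendrocyte genes, the 3 most abundant of each role and every called gene were named, and a few more (Fa2h, Myrf, Sox10) were chosen after their values were seen. Values of a few genes under this rule are not reported here. The genes, lists and tests were chosen with earlier results of these data known. The first-exon comparison and the order per kilobase were added after the data were seen. First exons that overlap were counted as 1, which merges those of Mag.

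The gene and share tests were also run on simulated data, and the outcome is not reported here. Software was Python 3.11.15, scipy 1.17.1, pandas 2.3.3, matplotlib 3.10.9, R 4.3.3 and edgeR 4.0.16, which gave the TMM factors and the biological coefficient of variation. Alternatives were TMM and median-of-ratios library sizes, annotated transcripts alone, genomic-class models left out, all reads over the same exons, other minimum counts and each library alone.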

Additional observations from a re-analysis of the deposited data

How the results depend on the processing

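The count of 5 genes called lower was the same with TMM and with median-of-ratios library sizes, with all reads over the same exons and with a minimum of 50 reads, and it was 4 with genomic-class models left out and with no minimum. It was 3 with annotated transcripts alone, where 6 of the 10 genes kept enough reads to be tested: Mag had 11 and 2 such reads and was not tested, and Mal had an adjusted p of 0.0744 by Fisher's exact test. The log2 ratio of Mog turned to 0.16 with genomic-class models left out, on 1 read in each library. No other log2 ratio of the 10 genes changed sign under these settings. The count of first-exon calls, 0, was 1 (Gsn) with annotated transcripts alone, where fewer genes were tested, and 0 with 10 reads in each library or with incomplete matches added. The count of exon calls, 0, was 0 with 10 reads in each library and with incomplete matches left out. The mean level of Mag was 8.04 CPM with annotated transcripts alone, since most of its reads are outside the catalogue. The leading structure of Mag held 42.0% of reads with incomplete matches in the denominator, as a mean over the libraries.

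No paired analysis was possible because there is a single group. Tests between the libraries need both, so leaving out a library gives its own value, as printed for each gene. Depth limits Opalin, Apod, Cldn11 and Mog, whose ratio intervals all include 0.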

Other observations

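Unspliced reads within the last exon of Cnp had different classes in the libraries: 19 reads in replicate 1 were of the genomic class, and 15 reads in replicate 2 were among its 18 incomplete matches, with 0 in the genomic class. Reads classed as genomic made up 11.1% of Mobp reads in replicate 1 and 5.45% in replicate 2, and 3.11% and 1.34% of the reads of all 10 genes. Over all known genes the share was 6.49% in replicate 1 and 7.82% in replicate 2.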
